A study of Danio rerio with 13 samples.

Results

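Brains of male zebrafish with 1 mutant copy of *tert* (tert+/-) were set against brains of wild-type males, to ask what a single disrupted telomerase allele changes in the brain transcriptome of a young adult. The comparison holds 5 tert+/- and 5 wild-type libraries, chosen by the strain label, out of the 13 RNA-seq libraries of the series. The other 3 come from tert-/- fish, with both copies mutant. Every fish was of the AB strain, male and 3 months old, and the labels name no treatment. The mutation is carried in the germ line, so tert+/- fish have it in every cell and no Cre or transgene is involved. It is a published loss-of-function allele, and the comparison rests on that single mutant line. The study counts each library as 1 fish, but the labels name no individual animal, family or tank, so the p-values below measure the spread between these samples. Libraries are called by genotype and a number from 1 to 5, which only names them.

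Telomerase is the reverse transcriptase that adds telomeric repeats to chromosome ends, and *tert* encodes its catalytic protein. Zebrafish have telomeres of a length near the human one, and fish without the enzyme show tissue decline early in life. Heterozygous carriers keep 1 working copy and are commonly bred as the parents of homozygous mutants. Most neurons of the adult brain no longer divide, whereas radial glia in the zebrafish forebrain continue to do so.

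The deposited raw counts summed to 23215636 to 26219091 per tert+/- library and 22008289 to 29347329 per wild-type library, and 20064 of 32105 annotated genes had enough counts to be tested. Levels are given as CPM (counts-per-million), counts brought to a common library size after scaling by trimmed means of M values. The labelled tissue was checked against marker genes. All 8 neuronal markers were detected, and they summed to 8130 to 9700 CPM in tert+/- and 7910 to 8970 CPM in wild type. Oligodendrocyte markers summed to 17800 to 23800 CPM in tert+/- and 11300 to 24300 CPM in wild type. Markers of tissues other than brain were present at varying levels in both groups and are given beside the genes they move with. In whole-brain RNA, fewer cells of a type and less RNA per cell cannot be told apart.

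The mutated gene itself was not lower in tert+/- brains. *tert* (ENSDARG00000042637) stood at 8.80, 5.04, 5.10, 3.61 and 5.92 CPM in tert+/- libraries 1 to 5, against 3.88, 2.24, 1.98, 2.09 and 2.54 CPM in wild-type libraries 1 to 5. In 4 of the 5 tert+/- libraries the level was above that of every wild-type library, and the groups overlapped only through tert+/- 4 and wild type 1. The log2 fold change, tert+/- over wild type, was 1.16 ± 0.30 (SE), with an unadjusted p of 0.00214 and an adjusted p of 0.602 by the quasi-likelihood test of edgeR. An exact two-sided permutation test of the mean CPM over all regroupings of the 10 libraries gave p = 0.0159, where the smallest p possible is 0.00794. By DESeq2 the adjusted p was 0.0650, and it ran from 0.00918 to 0.273 over that tool's alternatives. The mutant allele holds a premature stop codon, so transcript counts do not check the genotype labels. In tert-/- brains *tert* stood at 10.4, 3.96 and 9.71 CPM.

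The gene *slc6a18* (ENSDARG00000068387), which encodes a transporter of neutral amino acids best known from the mammalian kidney, is listed 4 entries before *tert* in the deposited table. It was at 2.41, 1.24, 1.25, 0.617 and 1.38 CPM in tert+/- libraries 1 to 5. In wild-type libraries 1 to 5 it was at 0.0436, 0, 0.0720, 0.171 and 0.117 CPM, so every tert+/- library lay above every wild-type library. Its log2 fold change of 4.0 ± 0.62 had an unadjusted edgeR p of 2.08e-05 and an adjusted p of 0.165. DESeq2 gave it an adjusted p of 1.46e-06, and between 1.28e-07 and 0.00143 under its alternatives. In tert-/- brains *slc6a18* stood at 4.09, 0.990 and 2.02 CPM. Of the 17 tested genes within 10 table entries of *tert*, 2 were higher, *slc6a18* included, and 3 lower at an unadjusted p under 0.05. Over all tested genes, 4.11% were higher and 3.63% lower at that limit.

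Across all genes the difference between tert+/- and wild-type brains was small. No gene of 20064 (0.0%) passed an adjusted p of 0.05 by edgeR, where the lowest was 0.165. At an unadjusted p under 0.05 there were 1553 genes (7.74%), of which 824 (4.11%) were higher and 729 (3.63%) lower in tert+/-, where a test of genes with no difference would give 5%. limma-voom also called 0 genes, and DESeq2 called 28 of the 23317 it tested (0.12%), of which 24 (0.103%) were higher and 4 (0.0172%) lower. The fitted fold change was above 0 for 9911 genes (49.4%) and below 0 for 10153 (50.6%). The split of the 1553 genes depends on the scaling. With library totals in place of the trimmed means, 354 genes were higher and 1705 lower at an unadjusted p under 0.05, and the median over all genes lay at -0.08 on the log2 scale. Fold changes below are therefore relative to the scaling, and small shifts of highly expressed genes are given under both.

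The median gene differed by 0.14 on the log2 scale in either direction, and 9 in 10 genes by less than 0.48. More than a 2-fold difference was fitted for 345 genes, 204 of them higher and 141 lower in tert+/-. More than 4-fold was fitted for 57 genes, 44 higher and 13 lower. Large differences sat among genes of low level. Of the 57 genes past 4-fold, 32 averaged under 1 CPM and 21 averaged 1 to 10 CPM, whereas 2 averaged 10 to 100 CPM and 2 averaged 100 CPM or more. The share at an unadjusted p under 0.05 was 7.15% under 1 CPM, 7.19% from 1 to 10 CPM, 8.09% from 10 to 100 CPM and 9.02% from 100 CPM up. Genes well expressed in brain and rare transcripts both passed that limit, the well-expressed ones with differences of a fraction of a doubling.

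**Figure D1:**
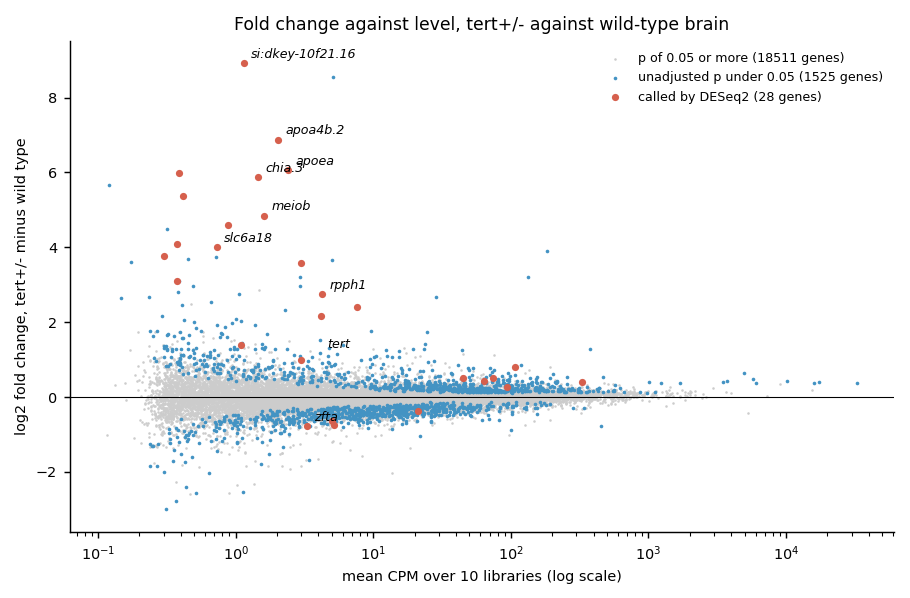
Log2 fold change, tert+/- over wild type, of the 20064 tested genes against their mean CPM over the 10 libraries (log axis), with the 28 genes DESeq2 called in red and the other 1525 genes at an unadjusted edgeR p under 0.05 in blue. Genes averaging under 1 CPM fan out past 4-fold, all but 2 of those at 100 CPM or more stay within 4-fold, and the fitted value of si:dkey-10f21.16, at 0 in every wild-type library, depends on the prior count of the fit.

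Agreement between the libraries was partial. In 171 genes (0.852%) every tert+/- library was above every wild-type library, and in 170 genes (0.847%) every tert+/- library was below, together 341 of 20064 (1.7%). Genes apart upward had a median log2 fold change of 0.25, and 22 of the 171 passed 2-fold. Those apart downward had a median size of 0.41, and 4 of the 170 passed 2-fold. Of the 824 genes higher at an unadjusted p under 0.05, 146 had all 5 tert+/- libraries above every wild-type library, and 371 had 4. Of the 729 lower genes, 140 had all 5 tert+/- libraries below and 334 had 4. Both sets were chosen by a p from these same libraries, so agreement within them is partly built in. The library that most often fell within the wild-type range was tert+/- 5, which was beyond it for 60.8% of the higher and 54.6% of the lower genes, while tert+/- 3 was beyond it for 81.9% and 86.7%.

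**Figure D2:**
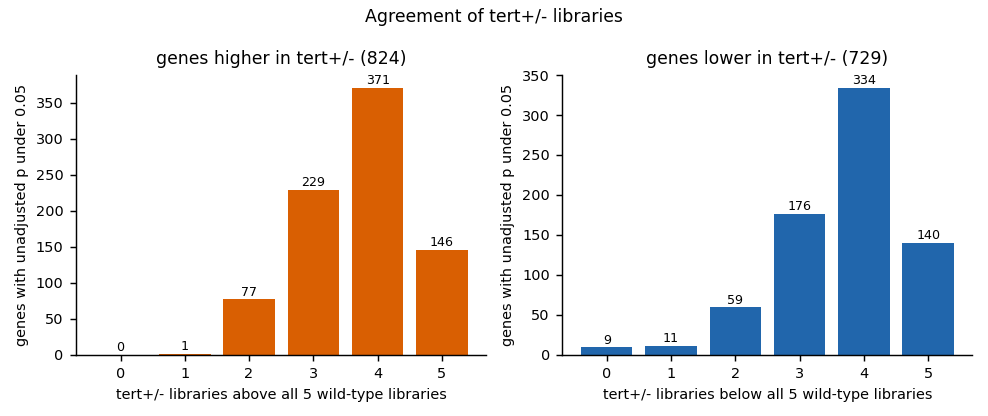
Number of genes by how many tert+/- libraries lay beyond all 5 wild-type libraries. Genes are the 824 higher (left) and the 729 lower (right) at an unadjusted p under 0.05. Most genes have 3 to 5 such libraries, which is partly built in because the p comes from the same libraries.

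Of the 28 genes DESeq2 called, 18 had groups that did not overlap, 14 of them higher and 4 lower. The calls were not stable across libraries. In 6 of the 28 (*chia.3*, *apoa4b.2*, *slc6a18*, *si:dkey-238c7.13*, *chia.1* and *apoea*) the call was kept when each of the 10 libraries was left out in turn. The wild-type mean was under 0.2 CPM for 12 of the 28. In the edgeR fit, 10 of the 28 passed the filter on low counts only through the tert+/- libraries, which favours genes higher there. Here and below this means that fewer than 3 of the wild-type and tert-/- libraries reached the limit of the filter. DESeq2 was run without that filter. Among those 10 were *apoa4b.2*, *apoea*, *chia.3*, *apoa4b.3*, *fabp1*, *krt92*, *zgc:153968* and *meiob*.

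The largest group among the called genes, 9 of 28, belonged to a list of intestinal genes: the digestive chitinases *chia.1* and *chia.3*, lipoprotein genes and genes of the enterocyte. The list holds 25 of the 20064 tested genes. It was written with earlier results of these data known, so its overlap with the calls is partly built in. *apoa4b.2* (ENSDARG00000020866), an apolipoprotein of the particles that carry dietary lipid, was at 4.46, 2.37, 0.179, 5.86 and 7.38 CPM in tert+/- libraries 1 to 5. In wild-type libraries it was at 0.0436, 0, 0.0360, 0.0685 and 0 CPM. All tert+/- libraries lay above all wild-type libraries, but tert+/- 3 only narrowly. The group totals were 491 and 4 counts, a scaled ratio of 137 with a 95% counting interval of 53 to 504, and the DESeq2 adjusted p was 3.24e-08 (1.85e-14 to 5.86e-06 under its alternatives).

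The same libraries were high for *apoea* (ENSDARG00000102004), a zebrafish apolipoprotein E gene, at 5.47, 3.02, 0.0448, 7.62 and 7.50 CPM in tert+/- libraries 1 to 5. In wild-type libraries 1 to 5 *apoea* was at 0.0436, 0.105, 0.0720, 0.103 and 0 CPM, and tert+/- 3 lay within that range. Totals of 573 counts in tert+/- and 9 in wild type gave a ratio of 70.9 (37.1 to 156), with a DESeq2 adjusted p of 8.45e-08 (5.44e-23 to 3.29e-05 under its alternatives). *chia.3* (ENSDARG00000009612), an acidic chitinase, had 4.62, 1.05, 0.134, 3.17 and 5.31 CPM in tert+/- libraries and 0, 0.0701, 0.108, 0.0343 and 0 CPM in wild-type libraries. Its groups did not overlap, the ratio was 64.6 (29.4 to 177) from 348 and 6 counts, and the DESeq2 adjusted p was 4.07e-06 (2.34e-11 to 0.000279 under its alternatives).

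Leaving out tert+/- 3, the library low for these genes, gave the only calls by edgeR among the single omissions. By edgeR the 5 called genes were *apoea* (adjusted p = 0.000216), *apoa4b.2* (0.000831), *chia.3* (0.0111), *apoa4b.3* (0.0192) and *zgc:153968* (0.0428). All 5 had passed the count filter only through tert+/- libraries, which favours genes higher in that group. With every library in, their edgeR adjusted p were 0.165 or above, and over all alternatives they reached 0.692 to 0.905.

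*chia.1* had 3.13, 2.25, 0.313, 9.87 and 12 CPM in tert+/- libraries 1 to 5 and 0.218, 0.596, 0.360, 0.548 and 0.546 CPM in wild-type libraries, a log2 fold change of 3.58 ± 0.82. The groups overlapped through tert+/- 3. *apoa1a*, the main apolipoprotein of high-density lipoprotein, had 8.84, 6.82, 1.39, 7.49 and 9.81 CPM in tert+/- libraries and 2.88, 0.736, 1.66, 1.54 and 0.859 CPM in wild-type libraries, a log2 fold change of 2.17 ± 0.49. Again 4 tert+/- libraries were high and tert+/- 3 lay among the wild-type values. The liver and intestinal fatty acid binding protein *fabp1* (ENSDARG00000059227) had 205 counts in tert+/- and 9 in wild type, a ratio of 25.4 (13.1 to 56.3), and the keratin *krt92* had 87 and 5 counts, a ratio of 19.4 (7.99 to 61.2). *apoa4b.3* had 98 and 2 counts, a ratio of 54.6 (14.7 to 457). The copies of apoa4b and of chia lie in families of similar sequence, so reads may be shared between them and the split among copies is uncertain.

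Of the 35 genes of the intestinal list, written with earlier results of these data known, 25 were measured. Of these 25, 10 passed the count filter only through tert+/-, which favours, but does not fix, the higher direction there. Measured members were higher in 21 and lower in 4 cases, with a median log2 fold change of 1.44, against 0.00 over all genes tested. At an unadjusted p under 0.05, 15 were higher and 0 lower, and 7 were apart upward. Over all tested genes, 4.11% were higher at that limit and 0.852% were apart upward. The mean log2 level of the list, relative to its average over the wild-type libraries, was 1.63, 1.31, 0.24, 2.14 and 2.18 in tert+/- libraries 1 to 5, and between -0.08 and 0.10 in the wild-type libraries. Every tert+/- library was above all wild-type libraries. Its median in tert-/- brains was 0.18 above wild type. The 5 genes taken as intestinal markers were all detected and summed to 21.9 to 35.8 CPM in tert+/- and 13.5 to 23.5 CPM in wild type. They include *chia.3*, a called gene that is also a member of the list, so the sum is not a separate measure. *chia.3* reached 5.31 CPM in tert+/- and at most 0.108 CPM in wild type, and passed the count filter only through tert+/-. Whether non-brain tissue had a part in the levels of this list was not tested.

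In the tert-/- brains, which share no library with the tert+/- group, these genes were below most tert+/- libraries. *apoa4b.2* was at 0.372, 0.0958 and 0.116 CPM, *apoea* at 0.0620, 0.0319 and 0.0388 CPM, and *chia.3* at 0.0930, 0.0639 and 0 CPM. *apoea* and *chia.3* lay within the wild-type range, while *apoa4b.2* was above every wild-type library in all 3. That rests on 12, 3 and 3 counts, against at most 2 in a wild-type library. The log2 fold change of *apoa4b.2*, tert-/- over wild type, was 2.56 ± 1.25, with an unadjusted edgeR p of 0.0627. The log2 differences, tert-/- over tert+/-, were -4.32 for *apoa4b.2*, -6.58 for *apoea* and -5.58 for *chia.3*. DESeq2 adjusted p for these differences were 0.00315, 9.29e-05 and 0.00154. That contrast had 17 DESeq2 calls of 25415 genes (0.0669%) and 0 by edgeR. The 2 comparisons share the tert+/- libraries, and these 3 genes were chosen because they were high there. A negative difference was therefore favoured by that choice, and its p-values are not independent support.

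Other called genes were on in some libraries and nearly off in others. *meiob*, which encodes a single-stranded DNA binding protein of meiotic recombination, was at 6.59, 0.116, 5.82, 0.0881 and 3.04 CPM in tert+/- libraries 1 to 5. In wild-type libraries it was at 0.0873, 0.0701, 0.0720, 0.103 and 0.195 CPM, and in tert-/- libraries at 0.186, 0.128 and 3.88 CPM. Thus tert+/- 1, 3 and 5 and tert-/- 3 were high, and all other libraries were low. A further 2 genes, chosen after their values were seen, were high in the same 4 libraries. The lactate transporter *slc16a8* had 17.7, 1.28, 12.7, 0.705 and 14.4 CPM in tert+/- libraries, 0.744, 0.830 and 13.6 CPM in tert-/- libraries and 0.507 to 0.916 CPM in wild type. The unnamed gene ENSDARG00000104629 had 20.2, 0, 14.6, 0.132 and 15.8 CPM in tert+/- libraries, with 1222 counts in that group against 3 in wild type, and 0, 0.0319 and 18.9 CPM in tert-/- libraries.

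A second on-and-off pattern fell on other libraries. *si:dkey-10f21.16* was at 0, 0, 6.31, 5.2 and 0 CPM in tert+/- libraries 1 to 5 and at 0 CPM in all wild-type libraries, with 3.41, 4.6 and 4.62 CPM in the tert-/- libraries. With the wild-type group set at a floor of 3 counts in all, the tert+/- level was at least 96.1-fold higher. Only 2 of the 5 tert+/- libraries carried it.

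*si:dkey-238c7.13*, by contrast, was higher in every tert+/- library. It had 9.89, 6.51, 30.3, 8.90 and 8.72 CPM in tert+/- libraries 1 to 5 and 1.66, 2.14, 4.25, 2.30 and 1.76 CPM in wild-type libraries. The log2 fold change was 2.4 ± 0.45, with a DESeq2 adjusted p of 8.34e-05 (3.57e-06 to 0.0161 under its alternatives). The chemokine receptor gene *ccr9* (ENSDARG00000055186), known from lymphocytes, was at 1.2 to 2.1 CPM in tert+/- and 0.514 to 0.720 CPM in wild-type libraries (log2 fold change 1.39 ± 0.32), again with no overlap.

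RNA of small structured genes was high in part of the tert+/- libraries. *rpph1*, the RNA of ribonuclease P, had 2.25, 0.620, 14.0, 5.2 and 15.2 CPM in tert+/- libraries 1 to 5 and 1.31, 1.26, 0.360, 0.548 and 2.07 CPM in wild-type libraries (log2 fold change 2.75 ± 0.74). *rn7sl1*, the RNA of the signal recognition particle, had 60.6, 24.7, 355, 131 and 636 CPM in tert+/- and 35.7, 13.4, 10.3, 5.96 and 66.3 CPM in wild-type libraries (3.2 ± 0.86). Both were highest in tert+/- 3 and 5, and tert+/- 2 lay within the wild-type range. For *rn7sl1* tert+/- 1 lay within that range too. *rn7sk*, *rmrp* and *rnasep_nuc*, which like *rn7sl1* were chosen after their values were seen, had log2 fold changes of 2.68 ± 0.82, 2.98 ± 0.86 and 2.76 ± 0.75. These RNAs lack a poly(A) tail, and the library kit selects polyadenylated RNA. How much of each passed that selection was not tested.

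Among genes well expressed in brain, the clearest separations were modest in size. *bdnf* (ENSDARG00000018817), the neurotrophin that supports neuronal survival and synaptic plasticity, was at 86.4, 81.2, 85.9, 89.8 and 89.0 CPM in tert+/- libraries 1 to 5, against 62.3, 50.7, 58.4, 71.6 and 60.7 CPM in wild-type libraries 1 to 5. The groups did not overlap, and the log2 fold change was 0.51 ± 0.11 with a DESeq2 adjusted p of 0.0140 (4.61e-05 to 0.307 under its alternatives). In tert-/- brains *bdnf* stood at 48.8, 63.4 and 73.6 CPM, around the wild-type values.

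*rab3c* (ENSDARG00000014462), a small GTPase of synaptic vesicles, had 100.3, 109, 104, 96 and 100.4 CPM in tert+/- libraries and 81.5, 79.0, 90.7, 91.8 and 82.3 CPM in wild-type libraries. Its log2 fold change was 0.26 ± 0.06 (DESeq2 adjusted p = 0.00774, 0.00148 to 0.509 under its alternatives), with no overlap. *rrm2b* (ENSDARG00000033367), the p53-inducible subunit of ribonucleotide reductase, had 51.4, 62.1, 52.5, 54.9 and 40.3 CPM in tert+/- libraries and 36.3, 38.7, 38.5, 36.3 and 34.8 CPM in wild-type libraries. Its groups were apart too, at 0.50 ± 0.11 (DESeq2 adjusted p = 0.0343, 6.65e-05 to 0.543 under its alternatives). *rrm2b* was the only 1 of 28 measured p53 targets at an unadjusted p under 0.05, and the median of that list was 0.05.

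*nr1d2a*, a nuclear receptor of the circadian clock, had 158, 149.6, 106, 177 and 90.8 CPM in tert+/- libraries and 78.9, 63.7, 69.0, 108 and 74.5 CPM in wild-type libraries (0.79 ± 0.18). The groups overlapped at wild type 4. *fkbp5*, a glucocorticoid-induced co-chaperone named after its values were seen, had 387, 883, 362, 649.8 and 402 CPM in tert+/- libraries and 107, 74.0, 139, 365 and 415 CPM in wild-type libraries (1.29 ± 0.53). For *fkbp5* wild type 4 and 5 reached the tert+/- values. Of 40 measured clock genes, *nr1d2a* and *nfil3-6* (0.78 ± 0.31) were higher at an unadjusted p under 0.05 and 0 were lower, with a median of 0.07, or -0.01 with library totals. That share is near the 4.11% of all genes higher at that limit.

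**Figure D3:**
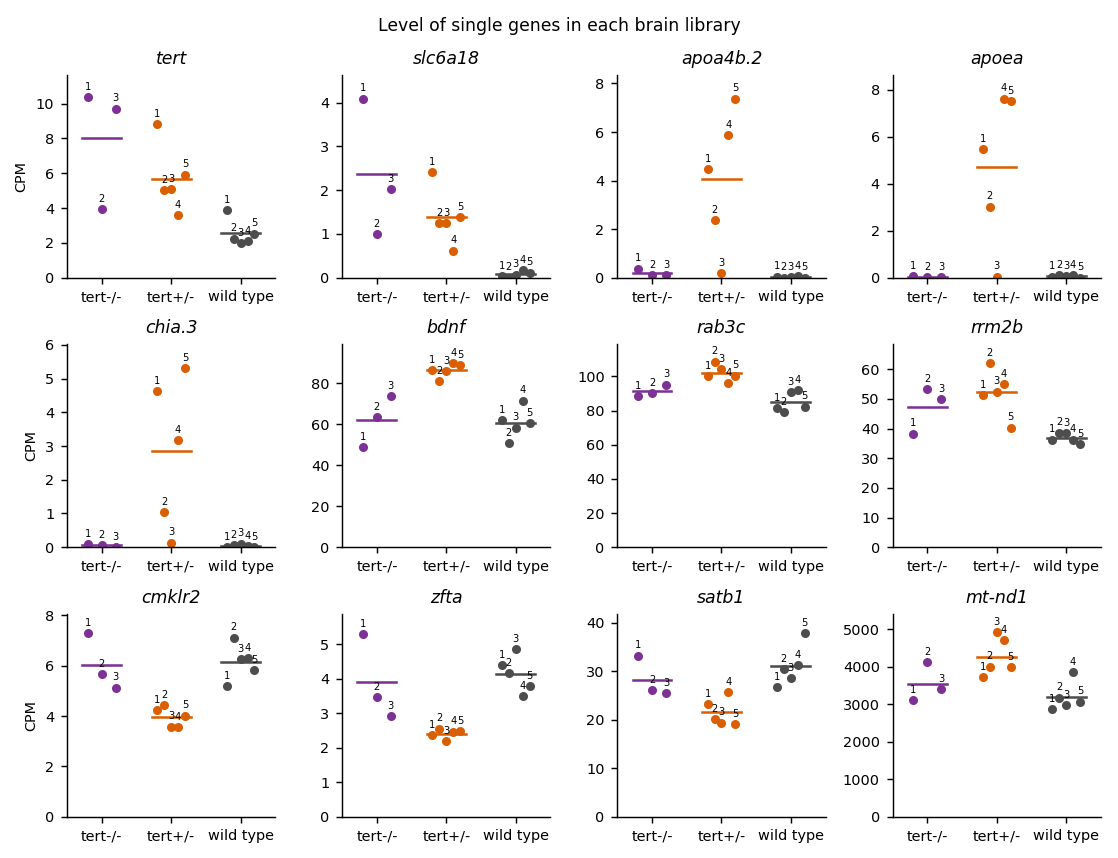
CPM of 12 named genes in each library (points, with the library's number), grouped as tert-/-, tert+/- and wild type, with the group mean as a bar. tert+/- and wild type do not overlap for bdnf, rab3c, rrm2b, slc6a18, apoa4b.2, chia.3, cmklr2, zfta and satb1, and overlap for tert, apoea and mt-nd1. tert-/- libraries lie within the wild-type range for apoea and chia.3. For apoa4b.2 they lie above it, tert-/- 2 and 3 with only 3 counts each.

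The 4 genes that DESeq2 called lower in tert+/- brains all had groups apart, with differences under 2-fold. *cmklr2* (ENSDARG00000101366), a G protein-coupled receptor of the chemerin receptor family, had 4.22, 4.42, 3.58, 3.57 and 4.01 CPM in tert+/- libraries 1 to 5 and 5.19, 7.12, 6.27, 6.30 and 5.82 CPM in wild-type libraries 1 to 5. Every tert+/- library was below every wild-type library, with a log2 fold change of -0.63 ± 0.13 and a DESeq2 adjusted p of 0.0259 (0.00418 to 0.148 under its alternatives). *zfta* (ENSDARG00000088036), a zinc finger gene whose human counterpart is fused to RELA in ependymoma, had 2.37, 2.56, 2.19, 2.47 and 2.47 CPM in tert+/- and 4.41, 4.17, 4.86, 3.49 and 3.79 CPM in wild-type libraries (-0.78 ± 0.17), also apart.

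The other genes DESeq2 called lower were the long noncoding RNA *lnc.133* (-0.73 ± 0.16) and the guanine exchange factor gene *rapgef1* (ENSDARG00000015971, -0.38 ± 0.09), both with groups apart. *lnc.133* was at 2.96 to 4.63 CPM in tert+/- and 5.04 to 7.61 CPM in wild-type libraries. *satb1*, a chromatin organiser of neurons and T cells, was not called with all libraries (DESeq2 adjusted p = 0.0620). It had 19.1 to 25.7 CPM in tert+/- and 26.7 to 37.9 CPM in wild-type libraries, a log2 fold change of -0.53 ± 0.12 with no overlap.

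Further genes with low p on this side were not called by edgeR or DESeq2 with all libraries, though each passed an adjusted p of 0.05 under at least 1 DESeq2 alternative. The kinase gene *akt1*, which acts downstream of insulin and growth factor receptors, was at 2.05 to 3.2 CPM in tert+/- and 3.36 to 4.53 CPM in wild-type libraries (-0.57 ± 0.15), apart. The tyrosine kinase gene *abl1* was at 7.27 to 12.9 CPM in tert+/- and 12.3 to 21.18 CPM in wild-type libraries (-0.84 ± 0.21), overlapping through tert+/- 2 and wild type 2. *prrt2*, a presynaptic protein whose loss causes paroxysmal movement disorders and seizures in people, had a log2 fold change of -0.44 ± 0.11, and *ahi1*, the Joubert syndrome gene of the primary cilium, -0.29 ± 0.07. Groups were apart for both. In tert-/- brains *akt1* was at 4.46, 4.53 and 4.78 CPM, and its difference, tert-/- over tert+/-, had a DESeq2 adjusted p of 0.0162. As *akt1* was chosen for its low p in the same tert+/- libraries, this p is not independent of that choice.

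Genes of energy metabolism and protein synthesis leaned to one side in most members under the main scaling, by small amounts. Members of a list can move together within a library, and tert+/- and wild-type list levels overlapped for each of these lists. Of the 13 protein-coding genes of the mitochondrial genome, all 13 were higher in tert+/-, with a median log2 fold change of 0.37, and 11 had an unadjusted p under 0.05. Among all tested genes 4.11% were higher at that limit. *mt-nd1*, a complex I subunit, had 3732, 4006, 4914, 4702 and 4001 CPM in tert+/- libraries 1 to 5 and 2869.6, 3179.9, 2983, 3854 and 3070.8 CPM in wild-type libraries 1 to 5. Only wild type 4 exceeded the lowest tert+/- value, and the log2 fold change was 0.42 ± 0.11. *mt-atp6* of the ATP synthase was at 0.42 ± 0.13 and *mt-co1* of cytochrome oxidase at 0.36 ± 0.15, while *mt-nd5* (0.23 ± 0.12) and *mt-cyb* (0.35 ± 0.18) did not reach that limit. Mitochondrially encoded reads took 11.6% ± 2.0 of the counts in tert+/- and 9.42% ± 1.28 in wild type (SD, n = 5 each). These 13 genes lie on 1 genome and their levels can move together within a library, so they are not 13 independent results. With library totals the median was 0.30 and all 13 were still higher. Without wild type 1, wild type 5 and tert+/- 3 it was 0.17.

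Nuclear genes of oxidative phosphorylation were higher in 76 and lower in 5 of 81 cases, with a median of 0.12, and 7 were higher and 0 lower at an unadjusted p under 0.05, the limit that 4.11% of all genes passed upward. Examples were *ndufa4* (0.15 ± 0.06) of cytochrome oxidase and *cox8b* (0.38 ± 0.16). With library totals 64 of 81 were higher and the median was 0.05. The level of this list was 0.04 to 0.25 in tert+/- and -0.21 to 0.14 in wild type, lowest in wild type 1. Cytosolic ribosomal protein genes were higher in 78 of 79 cases with a median of 0.09, but in 49 of 79 with a median of 0.01 when library totals were used. Their list level was -0.05 to 0.22 in tert+/- and -0.11 to 0.105 in wild type, with 2 tert+/- libraries above all wild-type libraries. *rplp2* of the ribosomal stalk had 185, 166, 156, 147 and 147 CPM in tert+/- libraries and 134, 147, 135, 142 and 142 CPM in wild-type libraries (0.20 ± 0.07). Its groups were apart, but tert+/- 4 and wild type 2 were nearly equal. Proteasome genes were higher in 44 of 47 cases (median 0.08), or 24 of 47 with library totals (median 0.00). Of the 47, 2 had an unadjusted p under 0.05, *psmb9* and *psma6* (ENSDARG00000019398), a share near the 4.11% of all genes.

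Mitochondrial ribosomal protein genes were higher in 61 of 73 cases (median 0.08), or 37 of 73 with library totals. Among them *mrpl12* had 68.7, 64.3, 73.0, 60.9 and 67.0 CPM in tert+/- libraries and 53.5, 51.2, 53.3, 52.9 and 60.0 CPM in wild-type libraries. The groups did not overlap, and the log2 fold change was 0.30 ± 0.07. In tert-/- brains *mrpl12* was at 56.0, 68.4 and 61.8 CPM.

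Of 34 antioxidant genes, 22 were higher, 5 of them at an unadjusted p under 0.05, and 0 were lower at that limit (median 0.11, or 0.03 with library totals). Among all genes 4.11% were higher and 3.63% lower at that limit. *sod1*, the cytosolic superoxide dismutase, had 127, 148, 127, 127 and 113 CPM in tert+/- libraries and 114, 113, 97.1, 107 and 113 CPM in wild-type libraries (0.24 ± 0.08). tert+/- 5 lay inside the wild-type range. The lipid peroxide reductase gene *gpx4* had 138, 153, 145, 146 and 132 CPM in tert+/- and 124, 129, 122, 129.9 and 129.8 CPM in wild-type libraries (0.17 ± 0.06), with no overlap. *gpx1b* (0.74 ± 0.26), *gpx1a* (0.31) and thioredoxin *txn* (0.20 ± 0.07) were the other 3.

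Protein-folding genes lay on both sides. *dnajb1a*, an HSP40 co-chaperone, had 5.26, 3.22, 4.70, 5.16 and 4.09 CPM in tert+/- libraries and 7.42, 6.38, 6.48, 7.68 and 7.73 CPM in wild-type libraries, a log2 fold change of -0.67 ± 0.16 with groups apart. Its paralogue *dnajb1b* was at -0.75 ± 0.27, and these 2 were the members of the heat shock list (31 measured, median -0.05) with an unadjusted p under 0.05. In the unfolded protein response list (29 measured, median 0.04) *xbp1*, the transcription factor spliced by IRE1, had 187 to 203 CPM in tert+/- and 163 to 182 CPM in wild-type libraries (0.18 ± 0.06), apart. *dnajc3a* was also higher (0.23), whereas *ddit3* (-0.39 ± 0.16) and the ER co-chaperone *dnajb9* (ENSDARG00000052072, -0.42 ± 0.15) were lower at that limit.

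**Figure D4:**
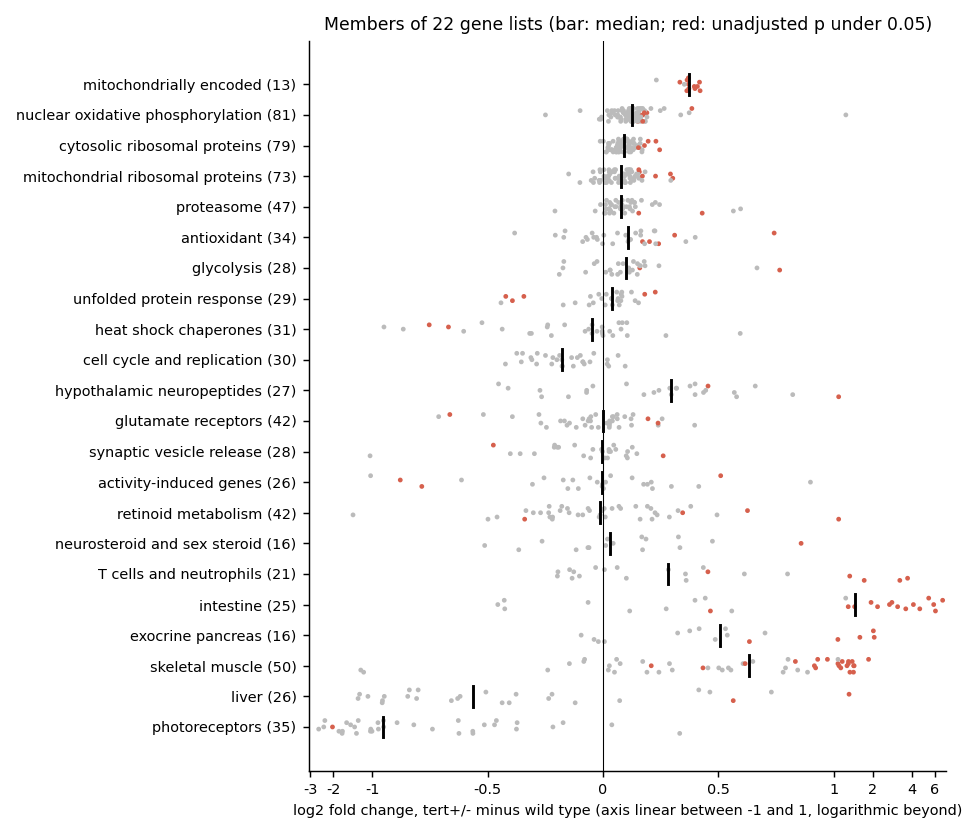
Log2 fold change, tert+/- over wild type, of every measured member of 22 gene lists (points) with the list's median as a line, on an axis that is linear near 0 and logarithmic beyond. Mitochondrially encoded and ribosomal genes sit in a narrow band just above 0, intestinal genes spread upward with a median of 1.44, and photoreceptor genes spread downward with a median of -0.95.

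Genes of neuronal signalling showed no common direction. Synaptic vesicle genes had a median of 0.00 (13 of 28 higher), glutamate receptor genes 0.00 (21 of 42) and GABA and glycine receptor genes -0.05 (17 of 39). Within them, *gria3* (ENSDARG00000037498), an AMPA receptor subunit, had 312, 329, 347, 384 and 328 CPM in tert+/- libraries and 304, 286, 281, 289 and 282 CPM in wild-type libraries (0.24 ± 0.09), apart. *grin2c* (ENSDARG00000077560), an NMDA receptor subunit, had 5.76 to 9.61 CPM in tert+/- and 8.61 to 14.4 CPM in wild-type libraries (-0.66 ± 0.21). *egr1*, an immediate early gene switched on by activity, was at 342, 191, 440.5, 249 and 429.7 CPM in tert+/- and 888, 385, 725, 506 and 343 CPM in wild-type libraries (-0.79 ± 0.29), overlapping at wild type 2 and 5. The neuronal RNA-binding protein gene *elavl3* (-0.29 ± 0.12) and the tau gene *mapta* (-0.32 ± 0.11) were the 2 neuronal identity genes at an unadjusted p under 0.05, of 23 measured (median 0.06).

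Neuropeptide genes of the hypothalamus were higher in 19 and lower in 8 of 27 cases, with a median of 0.30. *kiss1*, a peptide that acts on reproductive and habenular circuits, had 5.83, 8.03, 7.16, 7.36 and 3.69 CPM in tert+/- and 4.06, 4.03, 2.49, 1.16 and 3.36 CPM in wild-type libraries (1.09 ± 0.39). Only tert+/- 5 fell within the wild-type range. In tert-/- brains *kiss1* was at 0.682, 1.98 and 2.99 CPM, which is -1.77 on the log2 scale relative to tert+/-. *npy*, the appetite-promoting neuropeptide Y, had 71.8, 96.6, 116, 121 and 135 CPM in tert+/- and 88.5, 55.8, 83.8, 92.1 and 73.5 CPM in wild-type libraries (0.45 ± 0.20). Here tert+/- 1 lay below 4 of the wild-type libraries.

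The list level of the neuropeptides was -1.92, 0.90, 0.71, 0.18 and -0.13 in tert+/- libraries 1 to 5 and -0.42 to 0.25 in wild type. Monoamine neuron genes were higher in 12 of 13 cases (median 0.27), with 0 at an unadjusted p under 0.05, and their list level was also lowest in tert+/- 1 (-1.33). Thus tert+/- 1 stood apart from the other 4 for both lists. The amount of hypothalamus in each dissection is not given in the labels, and its part was not tested.

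The study is concerned with retinoid and sex steroid pathways in the ageing brain. Of 42 measured genes of retinoid metabolism and reception, 19 were higher and 23 lower, with a median of -0.01. *aldh1a2*, an enzyme that makes retinoic acid, had 24.8, 21.9, 26.8, 21.9 and 25.8 CPM in tert+/- and 21.5, 31.8, 26.7, 41.3 and 32.1 CPM in wild-type libraries (-0.34 ± 0.15). Wild type 1 lay below every tert+/- library and wild type 3 among them, so only the other 3 wild-type libraries were higher. The cellular retinol carrier *rbp2* (ENSDARG00000070038), a gene of the intestine in mammals, had 4.62, 2.37, 1.43, 4.85 and 6.69 CPM in tert+/- and 2.27, 2.28, 1.62, 1.23 and 1.99 CPM in wild-type libraries (1.09 ± 0.36), with tert+/- 3 the lowest of its group, as for the intestinal genes. The reductases *rdh8* (ENSDARG00000028048, 0.34 ± 0.15) and *dhrs3* (ENSDARG00000044982, 0.63 ± 0.28) were the other 2 at an unadjusted p under 0.05. Thus 3 of the 42 were higher and 1 lower at that limit, which 4.11% of all tested genes passed upward and 3.63% downward. Of 16 neurosteroid and sex steroid genes, 1 passed that limit, a share near that of all genes. It was *cyp19a1* (ENSDARG00000041348), which encodes aromatase, the enzyme that makes oestrogens. It had 0.603 to 1.32 CPM in tert+/- and 0.218 to 0.742 CPM in wild-type libraries (0.86 ± 0.32). The median of the 16 genes was 0.03, and their direction turned with library totals (-0.04).

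Telomere genes other than *tert* were near 0. Of the 22 measured, *tert* included, 11 were higher and 11 lower with a median of 0.01, and *gar1*, a protein of the telomerase and small nucleolar RNA complexes, was the only other member at an unadjusted p under 0.05 (0.27 ± 0.12). Cell cycle genes were lower in 25 of 30 cases with a median of -0.18, but 0 of the 30 had an unadjusted p under 0.05. Their list level was 0.52, -0.20, -0.49, -1.0 and 0.02 in tert+/- libraries 1 to 5, and from -0.33 to 0.41 in wild type. The direction rested on a few libraries. The median was -0.01 without tert+/- 4, -0.04 without wild type 1 and 0.22 without wild type 1, wild type 5 and tert+/- 3.

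Skeletal muscle genes were higher in 44 of 50 cases, 21 of them at an unadjusted p under 0.05, with a median of 0.63. Over all tested genes 4.11% were higher at that limit. *tnnc2*, troponin C of fast muscle, had 14.4, 7.91, 31.2, 13.8 and 18 CPM in tert+/- and 9.95, 5.47, 6.92, 8.36 and 9.25 CPM in wild-type libraries (1.09 ± 0.35), highest in tert+/- 3 and inside the wild-type range in tert+/- 2. Muscle markers summed to 97.2 to 484 CPM in tert+/- and 54.7 to 226 CPM in wild type, with the highest sum in tert+/- 3. The list median was 0.32 without tert+/- 3, and 0.41 for tert-/- over wild type. Whether adhering muscle had a part was not tested.

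T cell and neutrophil genes were higher in 14 of 21 cases (median 0.28), 5 at an unadjusted p under 0.05, against 4.11% of all genes. *cd4-1*, the co-receptor of helper T cells, had 0.723, 0.737, 2.96, 1.1 and 0.527 CPM in tert+/- and 0.262, 0.421, 0.396, 0.308 and 0.429 CPM in wild-type libraries (1.71 ± 0.45), apart. *rag1*, the recombinase of developing lymphocytes, had 3.70, 1.71, 13.2, 7.93 and 0.122 CPM in tert+/- and 0.262, 0.491, 0.252, 0.617 and 1.21 CPM in wild-type libraries (3.22 ± 0.95), and tert+/- 5 was the lowest of the 10. Both genes peaked in tert+/- 3. Of 6 leukocyte markers, 5 were matched to a gene, none of them at 0 in every library. The matched markers summed to 1.70 to 8.99 CPM in tert+/- and 0.897 to 1.85 CPM in wild type, highest in tert+/- 3. They include *cd4-1*, *lck* and *cd8a*, which are also members of the list, so the sum is not a separate measure. The part of leukocytes in these values was not tested. Microglial genes had a median of 0.05 over 25 genes.

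Exocrine pancreas genes, a list written with earlier results of these data known, were higher in 13 of 16 measured cases (median 0.51). Of the 16, 6 passed the count filter only through tert+/-. In the list, the elastase gene *ela3l* was apart (2.01 ± 0.48). Outside the list, *ctrb.1*, chymotrypsinogen, had 71 counts in tert+/- and 3 in wild type, a ratio of 26.4 (8.66 to 131). Both genes passed the count filter only through tert+/-, which favours genes higher there. Pancreas markers summed to 4.52 to 10.5 CPM in tert+/- and 4.55 to 9.17 CPM in wild type.

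Liver genes ran the other way, lower in 20 of 26 cases with a median of -0.56, and 0 were lower and 2 higher at an unadjusted p under 0.05, *fabp10b* (0.56 ± 0.15) and *apobb.1* (1.31 ± 0.54). Their list level was -1.2, -0.83, 0.61, -0.75 and -0.76 in tert+/- libraries 1 to 5 and -0.32 to 0.49 in wild type, so tert+/- 3 was highest and the other 4 were below all wild-type libraries. Without tert+/- 3 the median was -1.36. The libraries high for intestinal apolipoproteins were thus low for the liver list. Photoreceptor genes were lower in 33 of 35 measured cases (median -0.95), with 1 at an unadjusted p under 0.05, *guca1a* (ENSDARG00000101567, -2.02 ± 0.71). Of the 35, 12 would not have passed the count filter without the tert+/- libraries, though wild-type libraries may have counted towards it too. The list level was high in wild type 1 (0.70), wild type 5 (2.46) and tert+/- 3 (1.44). Photoreceptor markers ran from 3.05 to 230 CPM in tert+/- and 5.10 to 420 CPM in wild type, highest in wild type 5, and without wild type 5 the list median was 0.16.

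**Figure D5:**
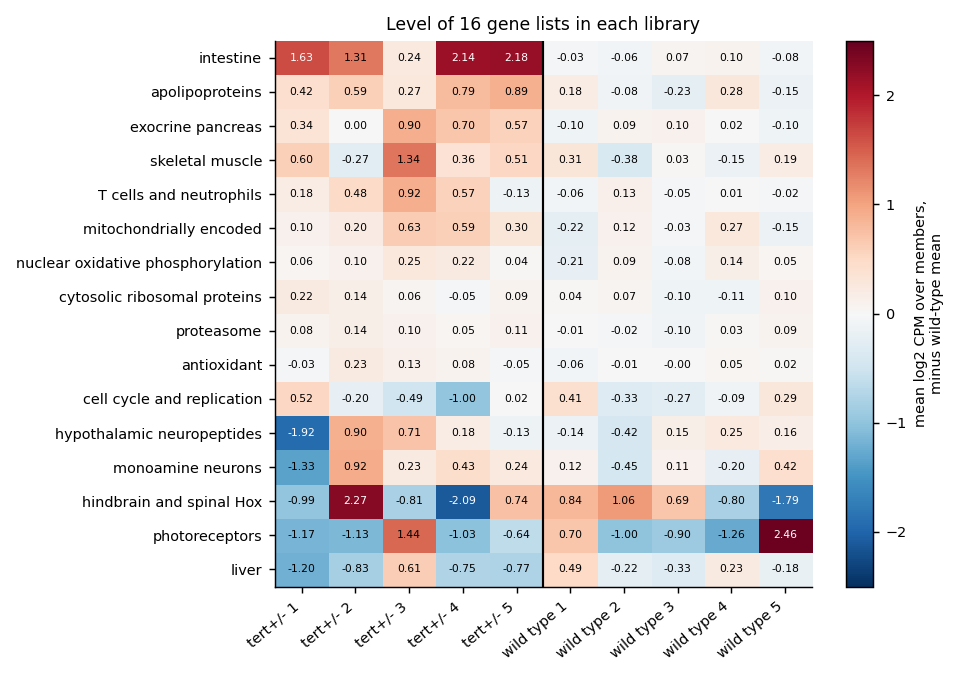
Mean log2 level of 16 gene lists in each tert+/- (left) and wild-type (right) library, relative to the mean of the wild-type libraries. The intestinal list is high in tert+/- 1, 2, 4 and 5, muscle and T cell lists peak in tert+/- 3, neuropeptides are lowest in tert+/- 1, and photoreceptor genes are high only in tert+/- 3 and wild type 1 and 5.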

How the data were processed

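The authors deposited a table of raw counts per gene for the 13 brain libraries. Per the labels, libraries were made from total RNA with a TruSeq v2 kit, which does not mark strand, so reads of antisense partners cannot be told apart. The submitters' processing notes name bcl2fastq 1.8.4, STAR 2.4.1d, featureCounts 1.4.6-p4 and the build GRCz10. The annotation release is not given in the sources used here. A deposited table of RPKM values for the same libraries was not used. Of 32105 gene IDs, 26269 (81.8%) had a symbol.

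Counts were analysed in R 4.3.3 with edgeR 4.0.16. Library sizes were scaled by trimmed means of M values, and genes were kept that reached 0.392 CPM in at least 3 libraries (filterByExpr, minimum count 10), which left 20064. All 13 libraries entered 1 quasi-likelihood fit with genotype as the only factor, and p-values were adjusted over all tested genes by Benjamini-Hochberg. Standard errors follow from the F statistic. Calls are at an adjusted p under 0.05. Alternatives were DESeq2 1.42.0, voom (limma 3.58.1), DESeq2-type size factors, no count filter, only the 10 compared libraries, and leaving out each library in turn. A further alternative left out wild type 1, wild type 5 and tert+/- 3 together, the compared libraries with the highest levels of the photoreceptor list in these data. Added after seeing the data were library totals as scaling and leaving out each tert-/- library. Fits were tested on simulated data. Intervals of count ratios are at 95% and cover counting error only. Per-sample sums and figures used Python 3.11.15, pandas 2.3.3 and scipy 1.17.1.

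Named genes were the 15 with the lowest p in each direction, the DESeq2 calls, the 8 largest non-overlapping differences in each direction and, for each of 43 lists, up to 6 members with the lowest p (whole lists under 15 genes). Exceptions, picked once their values were known, are marked in the text. The comparison, genes and lists were chosen with earlier results of these data known. A list level is the mean over measured members of log2 CPM, with a prior count of 2, relative to the wild-type mean.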

Additional observations from a re-analysis of the deposited data

Results flagged for a closer look

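In 8 of the 128 groups of 5 samples examined for a single value far from the others, 1 sample stood apart by Dixon's criterion, which chance gives in about 1 of 20 groups. On the first principal component of all libraries tert+/- 1 lay at -59.1, away from the other tert+/- libraries. For *si:dkey-238c7.13*, tert+/- 3 stood out at 30.3 CPM, and among wild-type libraries wild type 3 stood out at 4.25 CPM. tert+/- 3 was also far from its group for *cd4-1*, at 2.96 CPM, for the liver list, at a level of 0.61 (0.606), and for the photoreceptor list, at 1.44. Among wild-type libraries, wild type 5 was highest for *mrpl12*, at 60.0 CPM, and for *meiob*, at 0.195 CPM, the last resting on 5 counts.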

How the results depend on the processing

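edgeR called 0 genes with all libraries, with DESeq2-type size factors, with library totals, without the count filter and on the 10 compared libraries, and voom also called 0, whereas DESeq2 called 28. Leaving out single libraries gave 0 to 5 calls by edgeR, above 0 only without tert+/- 3. Without wild type 1, wild type 5 and tert+/- 3 together there were 2 calls, *apoea* and *apoa4b.2*, and 1018 genes at an unadjusted p under 0.05, against 1553 with all libraries, and single omissions gave 1069 to 2179. DESeq2 called 75 genes on the 10 compared libraries, and 11 (without wild type 2) to 136 (without tert+/- 5) when single libraries were left out, with 83, 49 and 47 without tert-/- 1, 2 and 3, 58 without tert+/- 2, 17 without wild type 1 and 16 without wild type 3. The cause was not tested. The 341 genes with groups apart split into 171 higher and 170 lower, but 223 of 367 were higher with DESeq2-type size factors and 48 of 464 with library totals. Of the 43 list medians, 19 had 1 direction under every alternative, among them the mitochondrially encoded (0.17 to 0.45), intestinal (0.46 to 1.62), muscle (0.32 to 0.78) and liver lists (-1.36 to -0.35). Photoreceptor (-1.47 to 0.20), Hox (-1.05 to 0.46) and cell cycle lists (-0.42 to 0.22) turned. All 141 genes with values in the text kept their direction under every alternative run. No paired analysis was possible because the labels number no replicates that groups share. Depth limits the genes under 1 CPM, where a library holds under 30 counts.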
